A study of Macaca fascicularis and Mus musculus with 492 samples.

Results

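The 3 D-type cyclin genes, CCND1, CCND2 and CCND3, were followed by name through single cells of cynomolgus monkey embryos and embryonic stem cells (ESCs), and their mouse counterparts Ccnd1, Ccnd2 and Ccnd3 through mouse cells. They are 3 of 28797 genes with a value in the monkey table and 3 of 26219 in the mouse table. The family was chosen by name because the level of its members was already known to change across these lineages, days and cultures, so its own levels and differences are given as a description without a test. In the monkey table CCND3 stands under the name LOC101865999, and RefSeq gives that gene ID the symbol CCND3.

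D-type cyclins are the regulatory subunits that switch on the kinases CDK4 and CDK6 in the G1 phase. The active kinase phosphorylates the retinoblastoma protein RB1 and its relatives, which releases E2F factors and with them the genes of DNA replication and of cyclin E. Signals from outside the cell act on D-type cyclins, and inhibitors of the INK4 and CIP/KIP families hold the kinases back. Pluripotent cells are known for a short G1 phase, and mouse embryos that lack every D-type cyclin still develop past gastrulation.

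SC3-seq, which reads the 3-prime ends of mRNA, had been applied to 492 single cells, of which 390 came from monkey embryos of E06, E07, E08, E09, E13, E14, E16 and E17 and 31 from monkey ESCs. The ESCs were 9 feeder-free cells of line CMK6, 14 CMK6 cells grown on mouse embryonic feeders and 8 cells of line CMK9 grown likewise. The mouse cells were 12 EpiLCs, which are epiblast-like cells induced for 2 days with activin A and bFGF, 10 cells of their parental ESC line BVSC R8 kept in 2i and LIF, and 24 and 25 embryo cells of E6.5 and E5.5 (C57BL/6). Preimplantation monkey embryos were taken apart whole. Of postimplantation ones a fragment cut by hand around the epiblast was used, and of mouse E6.5 epiblast only the proximal part. No genotype, transgene or drug separated the embryo groups, and the labels name no individual embryo, so the unit of replication here is a cell class on 1 day, or 1 culture. The p-values below therefore rest on how days or cultures vary and say nothing of how animals vary.

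Cell classes were rebuilt by clustering that left out the 3 cyclins and 59 other cell cycle genes, and were named "X-like" from marker genes. This gave 24 monkey and 7 mouse units of at least 5 cells, and 12 monkey cells fell in smaller units. The epiblast-like clusters had 7 of 8 epiblast markers raised, among them POU5F1, NANOG and SOX2. Cluster 6, with 31 cells of E06 led by DPRX, SPIC and NLRP7, and cluster 3, with 13 cells of E14 led by SPP1 and T, had 4 of 8 and stayed unnamed. Recovered reads per cell ranged from 166742 to 4491539 in monkey (median 1879342) and from 1004103 to 4158784 in mouse (median 2642943). Values are the deposited RPM, reads scaled to a common library total. Since each transcript is read only at its end, RPM was not divided by length and the 3 genes can be set side by side within a species, although differences in how well each gene's 3-prime end is annotated were not tested. Each title also carries a code such as MS08 whose meaning the labels do not give. The 34 early epiblast-like cells (E07 to E09) had the codes MS02, MS03 and MS08 and the 106 late ones (E13 to E17) MS08, MS09, MS10, MS11, MS13 and MS61, so code and stage cannot be told apart except within MS08.

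The 3 proteins share the short motif LxCxE near the start of the chain, the contact through which D-type cyclins bind the retinoblastoma protein. The mouse coding starts are shown because the family members differ little at this contact while their RNA levels differ by cell class. They come from the GENCODE M21 transcripts Ccnd1-201, Ccnd2-201 and Ccnd3-202 on GRCm38, run from the ATG, and have the codons of the motif in capitals.
Ccnd1: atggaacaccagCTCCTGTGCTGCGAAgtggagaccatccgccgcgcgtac
Ccnd2: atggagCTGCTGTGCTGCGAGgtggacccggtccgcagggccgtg
Ccnd3: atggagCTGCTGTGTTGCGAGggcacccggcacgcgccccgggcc
The motif began at codon 5 in Ccnd1 and at codon 3 in the other 2 genes. The coding sequences were 885, 867 and 876 bases long, and 69.4% of bases were identical between Ccnd1 and Ccnd2, 65.5% between Ccnd1 and Ccnd3 and 68.3% between Ccnd2 and Ccnd3, each as a share of the shorter one. Ccnd1 lies on chromosome 7 (144929931 to 144939925, minus strand), Ccnd2 on chromosome 6 (127125162 to 127152193, minus strand) and Ccnd3 on chromosome 17 (47505051 to 47599691, plus strand).

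Before implantation CCND3 was the prevailing D-type cyclin in monkey cells of each lineage. Of the 193 cells of E06 to E09, 160 had at least 10 RPM of CCND3, which is 82.9% (95% exact binomial interval 76.8 to 87.9). CCND1 reached that level in 7 cells (3.63%, 1.47 to 7.33) and CCND2 in 4 cells (2.07%, 0.57 to 5.22), and the medians of both were 0 RPM. Trophectoderm-like cells of E06 were lowest, with none of the 3 genes at 10 RPM in 8 of 12 cells. CCND3 supplied between 89.9% and 99.8% of the summed mean RPM of the 3 genes in the 11 units of these days. The intervals cover only the sampling of cells taken as independent, and leave out how embryos vary. The sources give no molecular identifiers.

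The level of CCND3 itself varied between lineages and days. In trophectoderm-like cells, the precursors of placenta, the median was 6.82 RPM on E06 (12 cells, 0.615 to 69.7), 23.5 RPM on E07 (19 cells, 0 to 246), 115 RPM on E08 (34 cells, 33.3 to 222) and 102 RPM on E09 (8 cells, 1.57 to 259). In hypoblast-or-endoderm-like cells, the lineage that lines the yolk sac, it was 20.3 RPM on E07 (10 cells, 0 to 140), 26.6 RPM on E08 (37 cells, 1.17 to 214) and 80.5 RPM on E09 (7 cells, 12.2 to 105). The days overlapped in both lineages, with E06 lowest in the first. In epiblast-like cells, which give rise to the embryo proper, it was 32.9 RPM on E07 (5 cells, 9.52 to 105), 75.9 RPM on E08 (24 cells, 19.4 to 201) and 69.1 RPM on E09 (5 cells, 45.8 to 103). Cluster 6 of E06 had a median of 30.9 RPM (31 cells, 0 to 202).

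The median hid a gap in trophectoderm-like cells of E09. In this unit 4 cells had 1.57, 7.68, 8.06 and 13.3 RPM of CCND3 and the other 4 had 191, 224, 224 and 259 RPM, with none between. All 8 carried the title code MS03. The log2 differences of CCND3 from epiblast-like cells were -1.20 on E07, -1.26 on E08 and -0.22 on E09 in hypoblast-or-endoderm-like cells. In trophectoderm-like cells they were -0.73 on E07, 0.58 on E08 and -0.78 on E09, with the sign turning on E08. Neither contrast passed the rule of at least 1 (log2) in the same direction on all 3 days. That rule was met by 7.48% of 9681 genes upward and 8.04% downward for hypoblast-or-endoderm-like cells, and by 6.99% and 7.88% of 9637 genes for trophectoderm-like cells. CCND1 and CCND2 were too low to be compared this way.

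The 4 early cells with CCND2 were all epiblast-like, 4 of 34 (11.8%, 3.30 to 27.5). On E08 they held 90.6 and 46.4 RPM beside 93.9 and 39.5 RPM of CCND3, on E07 10.3 RPM and on E09 15.3 RPM. No hypoblast-or-endoderm-like cell (0 of 54, which allows a share of up to 5.56%) and no trophectoderm-like cell (0 of 73, up to 4.11%) reached 10 RPM of CCND2. Nor did any of the 32 cells of cluster 6 (up to 9.38%). The shares are given without a test, since cells are not replicates of a lineage. CCND1 came to 33.2 and 11.1 RPM in another pair of E08 epiblast-like cells and to at most 15.4 RPM in any other cell of these days.

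**Figure D1:**
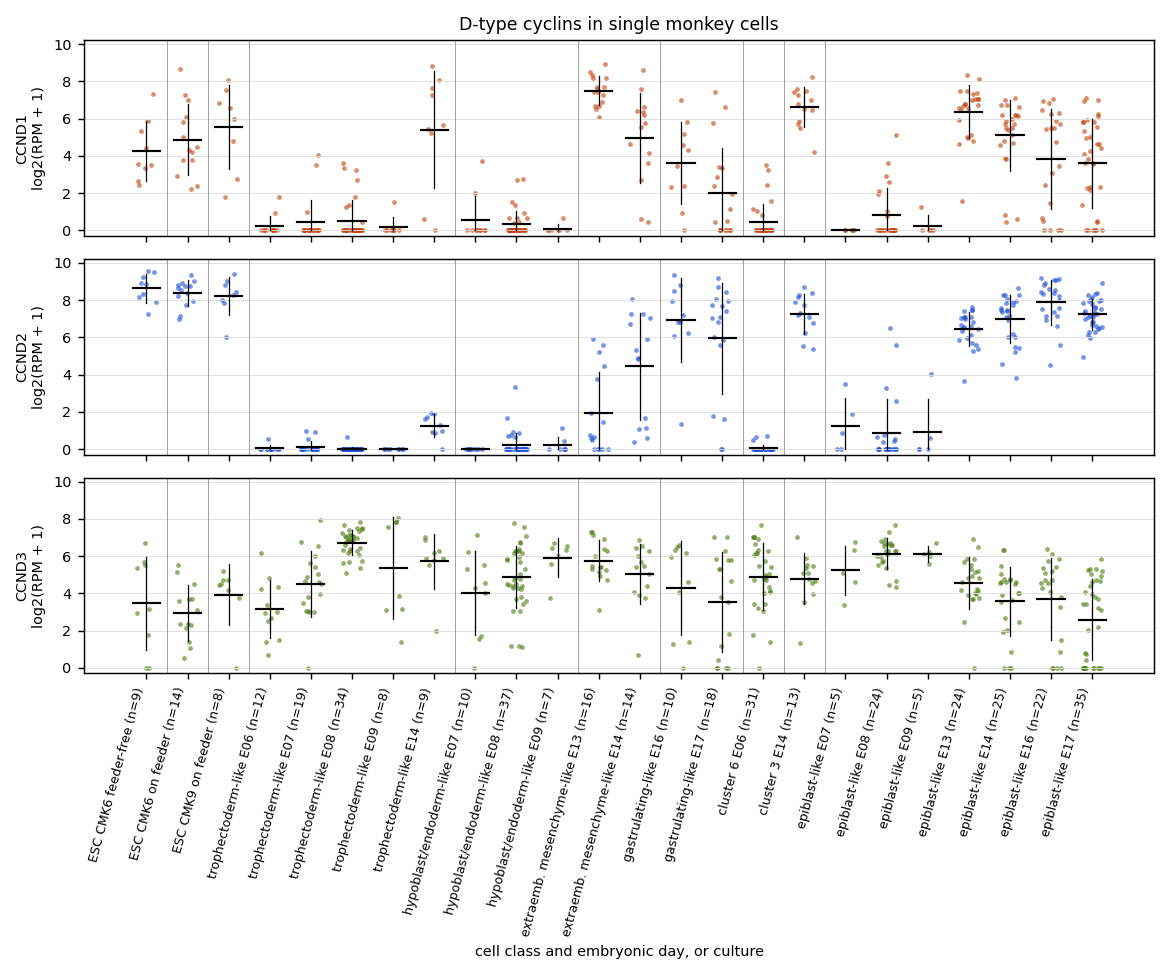
Each point is 1 monkey cell, with log2(RPM + 1) on the vertical axis for CCND1, CCND2 and CCND3 and the cell class and day or culture on the horizontal axis. The thick bar is the mean and the thin line the SD over cells. CCND1 and CCND2 lie at or near 0 in the units of E06 to E09 apart from a few points, and CCND3 lies lower in late epiblast-like cells and ESCs than in early epiblast-like cells.

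Late epiblast-like cells, which come from implanted embryos, carried all 3 cyclins, and the balance of CCND1 and CCND2 changed with the day. On E13 the median was 107 RPM for CCND1 (2.02 to 319), 94.8 RPM for CCND2 (11.5 to 200) and 25.4 RPM for CCND3 (0 to 119) over 24 cells. On E14 it was 50.4 RPM for CCND1 (0.348 to 138), 170 RPM for CCND2 (13.03 to 405) and 15.3 RPM for CCND3 (0 to 79.4) over 25 cells. CCND1 was thus level with CCND2 on E13 and below it on E14. On E16 the medians were 33.7 RPM for CCND1 (0 to 133), 308 RPM for CCND2 (21.6 to 591) and 22.5 RPM for CCND3 (0 to 81.6) over 22 cells. On E17 they were 15.99 RPM for CCND1 (0 to 137), 153 RPM for CCND2 (29.2 to 492) and 8.22 RPM for CCND3 (0 to 55.4) over 35 cells. Counted by cell, CCND1 was the highest of the 3 in 13 of 24 cells on E13, 4 of 25 on E14, 0 of 22 on E16 and 2 of 35 on E17, and CCND2 in 10, 20, 21 and 33 cells.

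Within the title codes that hold both E13 and E17, CCND1 was also lower on E17. In MS10 its mean log2(RPM + 1) was 6.88 on E13 (13 cells), 4.85 on E14 (4 cells) and 3.72 on E17 (18 cells). In MS61 it was 5.69 on E13 (10 cells), 5.73 on E14 (12 cells) and 3.47 on E17 (8 cells). MS08, which holds E14 and E16, had 4.36 on E14 (9 cells) and 4.53 on E16 (16 cells), so no decline was seen within it. On E16 the codes stood apart, with 4.53 in the 16 cells of MS08 and 1.95 in the 6 cells of MS09. CCND2 differed less between these, at 7.91 and 7.77. The cells without CCND1 on E16 (4 of 22) and E17 (6 of 35) kept CCND2, which was above 0 in every epiblast-like cell of both days.

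Set against the early days, late epiblast-like days lay higher in CCND1 and CCND2 and lower in CCND3. The cells lie in separate clusters by stage, the 34 early ones in cluster 9, those of E13 and E14 in cluster 8 and those of E16 and E17 in cluster 4. The day levels of CCND1 ran from 3.60 to 6.37 log2(RPM + 1) on late days and from 0 to 0.84 on early days, and those of CCND2 from 6.45 to 7.88 on late days and from 0.86 to 1.25 on early days. The day levels of CCND3 ran from 2.57 to 4.54 on late days and from 5.22 to 6.14 on early days. Single cells of the stages did overlap for each gene. The share of all genes whose day ranges stand apart was not counted, so nothing is read from the ranges of the members. The late-minus-early differences of day means were 4.36 for CCND1 (SE 0.60), 6.12 for CCND2 (SE 0.37) and -2.23 for CCND3 (SE 0.45) on the log2 scale, with 4 late and 3 early days. These are the contrasts for which the genes were picked, so no p is given. In the same fit 37.5% of 9897 tested genes passed the threshold, 13.3% upward and 24.2% downward, and nothing is read from the count of members beside it.

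The differences within title code MS08 (25 late and 2 early cells) were 4.47 for CCND1, 4.75 for CCND2 and -3.17 for CCND3. Median reads per cell ran from 852659 to 1982300 over late days and from 1644463 to 2054485 over early days. After each cell was thinned to 150000 reads, 90 of the shares of cells led by a given cyclin stayed within their 95% intervals and 3 did not, none of them in epiblast-like cells. The fibroblast markers THY1, FAP, PDGFRB and TWIST2 summed to between 30.7 and 48.1 RPM on late days and between 2.50 and 13.4 RPM on early days. Of the 4, THY1 alone reached 3 (log2) on late days and none did on early days, while 2 stayed below 1 on each late day and 2 to 4 on each early day. The part of these markers in the result was not tested.

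**Figure D2:**
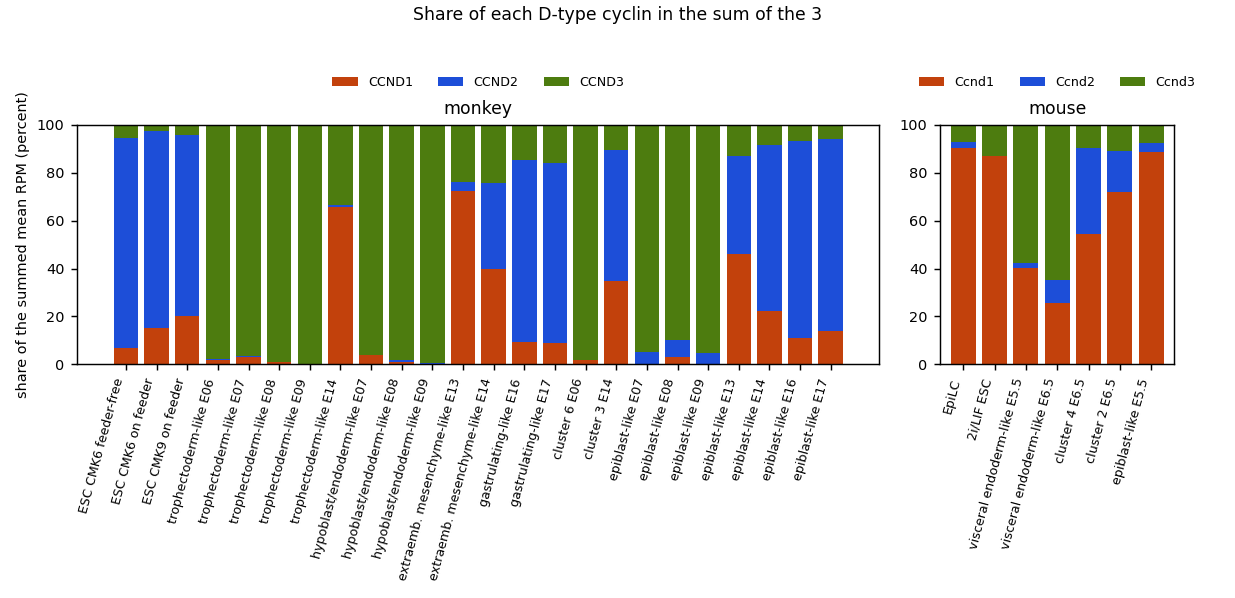
Bars give the share of each D-type cyclin in the summed mean RPM of the 3 genes, in percent, for each monkey (left) and mouse (right) cell class and day or culture. CCND3 fills at least 89.9% of every monkey bar of E06 to E09, CCND2 takes 41.1% to 81.9% in late epiblast-like cells and 75.5% to 87.6% in monkey ESCs, and Ccnd1 takes 87.01% to 90.1% in the mouse cultures.

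Other lineages of the implanted embryo used other combinations. Extraembryonic mesenchyme-like cells, which express collagens such as COL3A1 and COL1A1, were led by CCND1 on E13 (cluster 0), with a median of 182 RPM (67.4 to 484) beside 0.627 RPM of CCND2 (0 to 59.2) and 42.6 RPM of CCND3 (7.69 to 158) in 16 cells. CCND1 was the highest of the 3 in 15 of them. On E14 the 14 cells, which lie in cluster 1, split. CCND1 led in 6, CCND2 in 5 and CCND3 in 3, with medians of 49.7, 33.9 and 43.1 RPM. In this unit CCND1 and CCND2 tended to occupy different cells, with a Spearman rho of -0.64. The 14 cells share their day and, for 12 of them, the title code MS09. This rho was the lowest of the units for which it was computed, and the highest was 0.75, in CMK6 ESCs on feeders. The cells with the most CCND2 had 267, 154 and 152 RPM beside 45.7, 0.385 and 11.2 RPM of CCND1, and those with the most CCND1 had 395 and 190 RPM beside 1.17 and 0.492 RPM of CCND2. The cells with 395 and 190 RPM of CCND1 were the ones with title code MS13.

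Trophectoderm-like cells of E14 were the sole late unit of that lineage and came from a separate cluster whose leading genes included EPAS1, HSD3B1 and VGLL1. They held CCND1 with a median of 49.5 RPM (0 to 457) and CCND3 with 59.2 RPM (2.91 to 129), while CCND2 stayed at 1.47 RPM (0 to 2.76) in 9 cells. CCND1 was under 1 RPM in 2 of the 9 cells, which had the most CCND3 (129 and 117 RPM). Their mean CCND1 level of 5.41 log2(RPM + 1) stood against 0.19 to 0.52 in trophectoderm-like cells of E06 to E09, which lie in other clusters. The E14 cells had the title codes MS09 and MS13, which none of those early cells had, so code and stage cannot be told apart. The E14 cluster also had 4 of 8 extraembryonic mesenchyme markers raised, against 0 and 1 of 8 in the early trophectoderm-like clusters, and their part in the CCND1 level was not tested. CDKN1C, a CIP/KIP inhibitor of cyclin-dependent kinases, was at 9.77 log2(RPM + 1) in this unit and at 0.92 to 1.23 in trophectoderm-like cells of E06 to E09.

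Gastrulating-like cells, marked by T, MIXL1 and EOMES, were led by CCND2. On E16 the 10 cells had medians of 14.3 RPM for CCND1 (0 to 128), 131 RPM for CCND2 (1.55 to 659) and 42.1 RPM for CCND3 (0 to 94.7). On E17 the 18 cells had 0.821 RPM for CCND1 (0 to 171), 133 RPM for CCND2 (0 to 573) and 18.3 RPM for CCND3 (0 to 129). CCND2 was the highest of the 3 in 8 of 10 and 15 of 18 cells. Cluster 3 of E14 held 107 RPM of CCND1 (17.4 to 299), 159 RPM of CCND2 (39.9 to 409) and 32.5 RPM of CCND3 (1.53 to 128) in 13 cells, and no cell of it lacked CCND1 or CCND2.

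**Figure D3:**
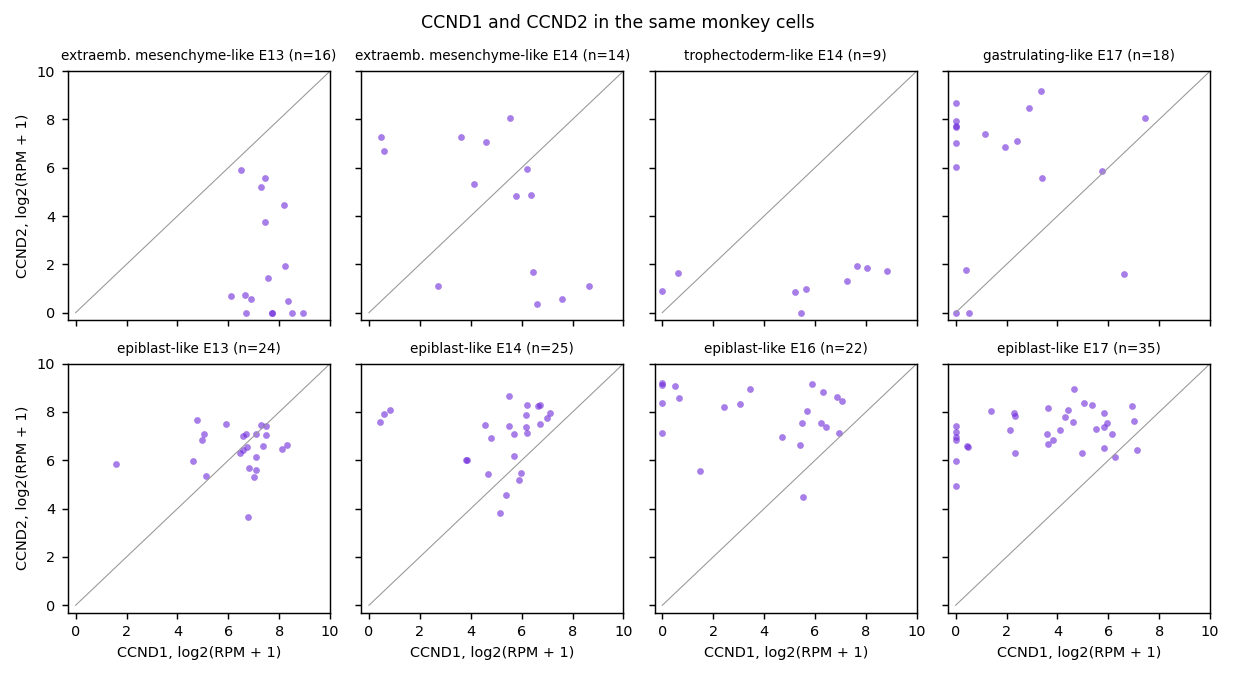
Each point is 1 monkey cell, with CCND1 on the horizontal and CCND2 on the vertical axis, both as log2(RPM + 1), in 8 late units, and the grey line marks equal levels. Extraembryonic mesenchyme-like cells of E13 and trophectoderm-like cells of E14 lie below the line but for 2 cells, epiblast-like cells of E16 and E17 lie mostly above it, and those of E13 lie around it.

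Monkey ESCs resembled epiblast-like cells of E14, E16 and E17 in having CCND2 as the leading gene. The median of CCND2 was 462 RPM in feeder-free CMK6 (154 to 752), 385 RPM in CMK6 on feeders (125 to 658) and 322 RPM in CMK9 on feeders (62.7 to 668). It was the highest of the 3 in 9 of 9, 14 of 14 and 7 of 8 cells. CCND1 had medians of 10.6 RPM (4.34 to 156), 20.0 RPM (3.59 to 406) and 78.4 RPM (2.45 to 265) in the same order of cultures, with overlapping ranges. CCND3 had 7.89 RPM (0 to 102), 5.91 RPM (0.415 to 45.02) and 20.9 RPM (0 to 35.2).

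The culture levels of CCND2 ran from 8.21 to 8.64 log2(RPM + 1), above the 6.45 to 7.88 of the 4 late days. How many of all genes have culture and day ranges that stand apart was not counted. The ESC-minus-late differences were 1.27 for CCND2 (SE 0.29), 0.17 for CCND1 (SE 0.60) and -0.15 for CCND3 (SE 0.48). Those of CCND1 and CCND3 were smaller than their SE and turned sign under 4 and 3 of 17 alternatives. The genes were picked with these levels known, so no p is given. In this fit 8.65% of 9880 genes passed the threshold, 7.14% upward and 1.52% downward. Within title code MS11, 9 feeder-free ESCs against 8 epiblast-like cells of E17, the differences were 2.00 for CCND2, 0.64 for CCND1 and 0.67 for CCND3. The 3 cultures come from 2 lines, and the cultures on feeders share title code MS05, which holds no embryo cell. The ESCs had 7 of 8 epiblast markers at 3 or more on the log2 scale. Their fibroblast markers summed to between 109 and 157 RPM against 30.7 to 48.1 RPM on late epiblast-like days, with THY1 at 3 or more (log2) and 2 of the 4 markers below 1 in all 3 cultures. The culture without feeders lay within that range at 115 RPM. The part of feeder RNA in the result was not tested.

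The 24 monkey units were put in order of level for each gene. CCND1 ran from 7.51 log2(RPM + 1) in extraembryonic mesenchyme-like cells of E13 to 0 in epiblast-like cells of E07, CCND2 from 8.64 in feeder-free CMK6 to 0 in trophectoderm-like cells of E09 and hypoblast-or-endoderm-like cells of E07, and CCND3 from 6.72 in trophectoderm-like cells of E08 to 2.57 in epiblast-like cells of E17. No pair of neighbours in these orders differed by more than the larger of their SDs over cells. Gaps between neighbours among 24 ordered units tend to be small, so this cannot show an even gradient. For CCND1 the units of E06 to E09 all stood at 0.84 or lower, and all later units and cultures at 1.99 or higher. Across the 24 units CCND2 correlated with CCND1 at a Pearson r of 0.71 and with CCND3 at -0.64, and CCND1 with CCND3 at -0.25 (-0.38 on the log of mean RPM). These correlations, and those below, are descriptions over units that share days, title codes and cultures.

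The genes whose unit levels followed each cyclin most closely were sought among 11725 genes. For CCND1 they were ATP6V0E2, a subunit of the vacuolar proton pump (r = 0.93), AXL, a receptor tyrosine kinase (0.90), LOC102118693 (0.89), MFAP2, a microfibril protein (0.89), and RAB34, a small GTPase (0.88). For CCND2 they were LDB2, a LIM-domain-binding cofactor (0.97), SFRP1, a secreted WNT antagonist (0.97), CA9, a carbonic anhydrase (0.96), IGFBP4, which binds insulin-like growth factors (0.96), and RASGEF1A, an exchange factor for Ras proteins (0.96). For CCND3 the closest were more distant, with SLC37A3, a transporter (0.84), CAPG, an actin-capping protein (0.83), VPS26B, a retromer subunit (0.79), LOC102125698 (0.77) and TMEM14C, a mitochondrial membrane protein (0.77). With medians over cells, chosen after seeing the data, the values for CCND3 were 0.74 for SLC37A3, 0.70 for CAPG, 0.52 for VPS26B and 0.60 for LOC102125698, and on the log of mean RPM VPS26B had 0.58.

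Genes that act with D-type cyclins were then tested between late and early epiblast-like days, with limma on unit means and adjustment over all 9897 tested genes. Of 51 tested genes in 6 lists, 3 rose and 18 fell, which is 5.88% and 35.3% beside 13.3% and 24.2% of all genes. Their median difference was -0.48 (log2), and the median of all tested genes was -0.26, a shift that became 0.00 after quantile normalization. The lists were drawn up with earlier results of these data known and get no test of their own.

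The partner kinases did not pass the test. CDK4 was at 7.18 log2(RPM + 1) on late days and 7.06 on early days (difference 0.13, SE 0.22, limma adjusted p = 0.687). CDK6 was at 4.17 on late days and 4.80 on early days (difference -0.63, SE 0.41, limma adjusted p = 0.244). Of the inhibitors, CDKN1B (p27) fell by 1.81 (SE 0.32, limma adjusted p = 0.000865) to 3.85 on late days, against 5.66 on early days. CDKN2D (p19), a member of the INK4 family, fell by 2.22 (SE 0.57, limma adjusted p = 0.00924), to 1.58 on late days, against 3.80 on early days. CDKN2D lost the call under 4 alternatives, edgeR and leaving out E09 among them, and kept it under 12. CDKN1B lost it under 2 alternatives and kept it under 15. It fell by 1.06 and lost the call when cluster 6 was counted as an early epiblast-like day, an alternative chosen after seeing the data. CDKN1C (p57) was at 2.68 on late days and 1.82 on early days and did not pass. CDKN2A, CDKN2B and CDKN2C were too low to be tested. CDKN1A did not pass the filter either, because too few units reached 2. It was at 4.02, 1.37 and 3.91 on E07, E08 and E09 and at 0.22 to 0.47 on late days. This difference was not tested.

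Among RB and E2F genes 3 of 11 fell, which is 27.3% and near the 24.2% of all genes. TFDP1, the dimer partner of E2F factors, fell by 2.45 (SE 0.40, limma adjusted p = 0.000563), and the repressive members E2F4 and E2F6 fell by 0.82 and 0.97 with limma adjusted p of 0.0167 and 0.0362. The call of E2F6 was lost under 11 of 17 alternatives and that of E2F4 under 5 of 17, quantile normalization and edgeR among them for both. RB1 was at 2.86 on late days and 2.29 on early days (limma adjusted p = 0.344). Of the cyclin E and A list 3 of 5 fell (60%, beside 24.2% of all genes). They were cyclin E1 (CCNE1, by 1.00), cyclin A2 (CCNA2, by 0.71) and the phosphatase CDC25A (by 1.02). Of genes that induce D-type cyclins or take part in their turnover 3 of 7 fell (42.9%, beside the same 24.2%). These were MYCN, a MYC family transcription factor (by 2.35, limma adjusted p = 0.000327), the ubiquitin ligase subunit SKP2 (by 1.47) and AMBRA1, the receptor that marks D-type cyclins for degradation (by 1.08, limma adjusted p = 0.027). AMBRA1 lost the call under 5 of 13 alternatives, among them edgeR and leaving out E14 or E17.

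Replication genes, which E2F factors drive, fell in 7 of 13 cases (53.8%, beside 24.2% of all genes). TYMS, which makes thymidylate, fell by 2.04 (SE 0.20, limma adjusted p = 1.57e-05), and the origin-loading factor CDC6 fell by 1.67. PCNA, the sliding clamp, fell by 0.99 (by 0.61 and no longer called with cluster 6 counted as early), MCM4 by 0.98, MCM3 by 0.95 and MCM6 by 0.73. The genes that did not pass included MCM2 (7.71 on late days and 8.10 on early days) and RRM2 (8.09 and 7.93). Of the mitotic genes 3 of 10 rose (30%, beside 13.3% of all genes). BUB1, a spindle checkpoint kinase, rose by 1.68 (SE 0.27, limma adjusted p = 0.000562), the kinase PLK1 by 1.15 and CDC20, the activator of the anaphase complex, by 1.12. MKI67 was at 6.65 on late days and 6.79 on early days and TOP2A at 9.19 and 9.09, and neither passed.

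**Figure D4:**
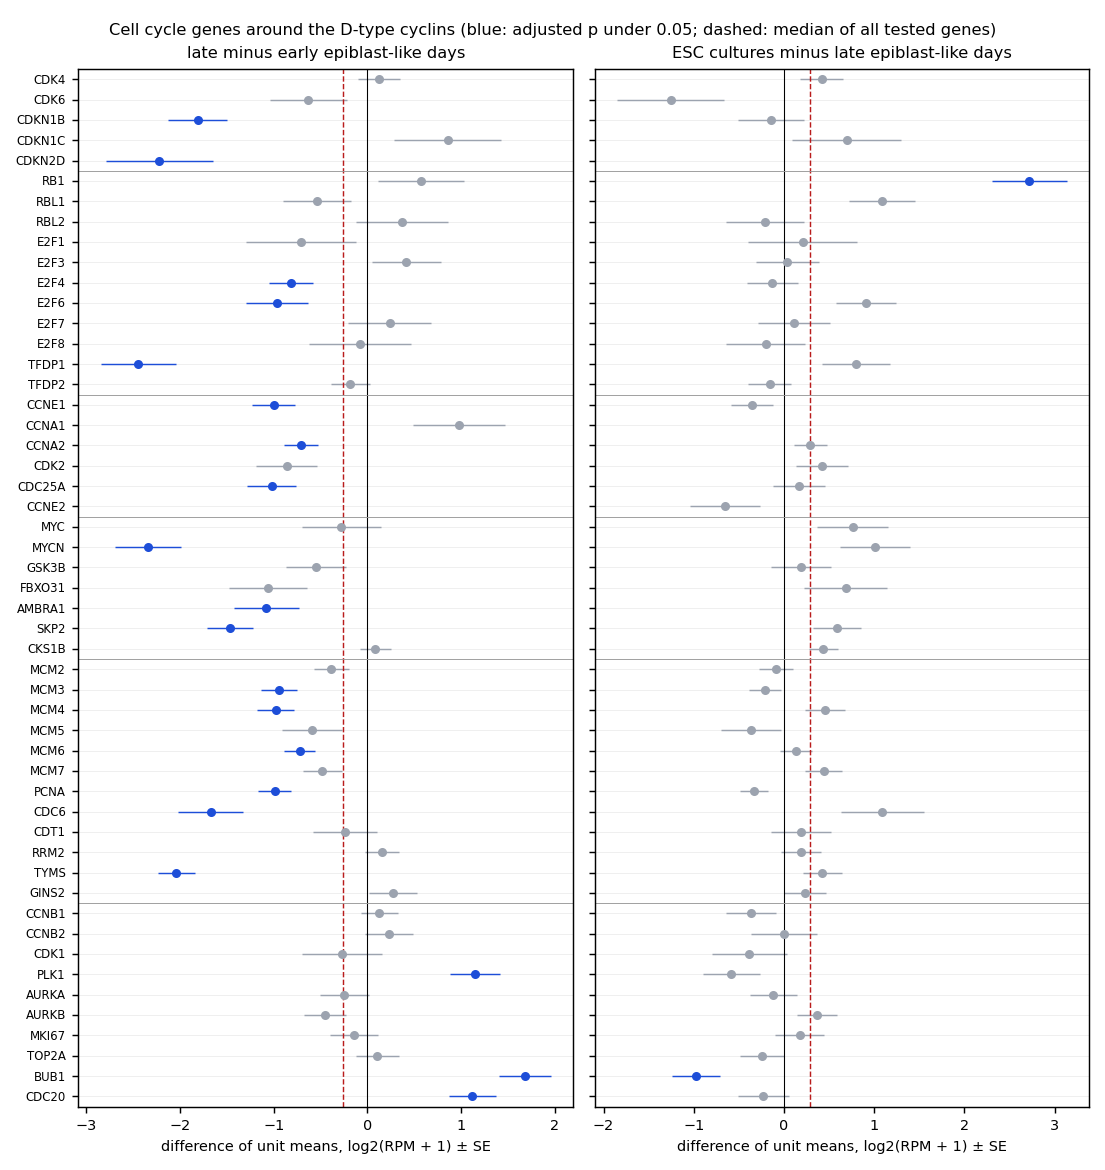
Points give the difference of unit means in log2(RPM + 1) with its SE for tested genes of the 6 cell cycle lists, late minus early epiblast-like days on the left and ESC cultures minus late days on the right. Blue points have a limma adjusted p under 0.05, and the dashed line is the median of all tested genes (-0.26 on the left, 0.28 on the right). The lower calls on the left include the replication genes TYMS, CDC6 and PCNA, and the right panel has 2 calls, RB1 and BUB1.

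When ESC cultures were set against late days, 2 of 49 tested list genes passed, 1 in each direction. That is 4.08%, beside 8.65% of all 9880 tested genes. RB1, the target of D-type cyclin kinases, rose to 5.59 log2(RPM + 1) in ESCs, against 2.86 on late days (difference 2.72, SE 0.42, limma adjusted p = 0.00722), and BUB1 fell by 0.97 to 7.08, against 8.05. The call of BUB1 was lost under most alternatives. CDK4 was at 7.60 in ESCs and 7.18 on late days, CDK6 at 2.91 and 4.17, CDKN1B at 3.70 and 3.85 and CDKN1C at 3.37 and 2.68, none past the threshold. The lowest CDK6 levels of the 24 units were in the CMK6 cultures, at 1.83 without feeders and 2.46 on feeders. CMK9 on feeders was at 4.44, above the 4.17 of late days. The median difference of all tested genes was 0.28 in this fit and -0.03 after quantile normalization.

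Lineages of the preimplantation embryo were compared for the same lists without a test, by the rule of at least 1 (log2) on each of E07, E08 and E09. Hypoblast-or-endoderm-like cells were lower than epiblast-like cells in genes that included MYC, MYCN, MCM2, MCM3, CDC6 and TOP2A. Trophectoderm-like cells were lower in MYC, MYCN, MCM2, MCM3, MCM6 and TFDP2 and higher in E2F8, an atypical repressive E2F. CDK4 and CDK6 met the rule in neither lineage. In extraembryonic mesenchyme-like cells CCND1 led on E13, while the leading cyclin differed between cells on E14. CDK4 was at 8.52 and 7.65 log2(RPM + 1) in this class on E13 and E14. CDK6 was at 6.80 and 7.29, the highest CDK6 levels of the 24 units.

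In mouse the leading D-type cyclin was Ccnd1 in epiblast-like cells and in both cultures. EpiLCs had a median of 171 RPM of Ccnd1 (15.5 to 318), 0 RPM of Ccnd2 (0 to 54.9) and 10.8 RPM of Ccnd3 (2.32 to 31.2) in 12 cells. ESCs in 2i and LIF had 144 RPM of Ccnd1 (0.805 to 290), 0 RPM of Ccnd2 (0 to 0.987) and 16.5 RPM of Ccnd3 (7.89 to 47.9) in 10 cells. The cultures overlapped for each gene, and the level of Ccnd1 was 6.89 ± 1.396 log2(RPM + 1) in EpiLCs and 6.59 ± 2.16 in ESCs (SD over 12 and 10 cells of 1 culture each, so no test of the conditions is possible). Epiblast-like cells of E5.5 had 97.1 RPM of Ccnd1 (13.3 to 191), 0.317 RPM of Ccnd2 (0 to 20.8) and 6.32 RPM of Ccnd3 (1.91 to 21.6), and Ccnd1 was the highest of the 3 in all 16 cells.

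**Figure D5:**
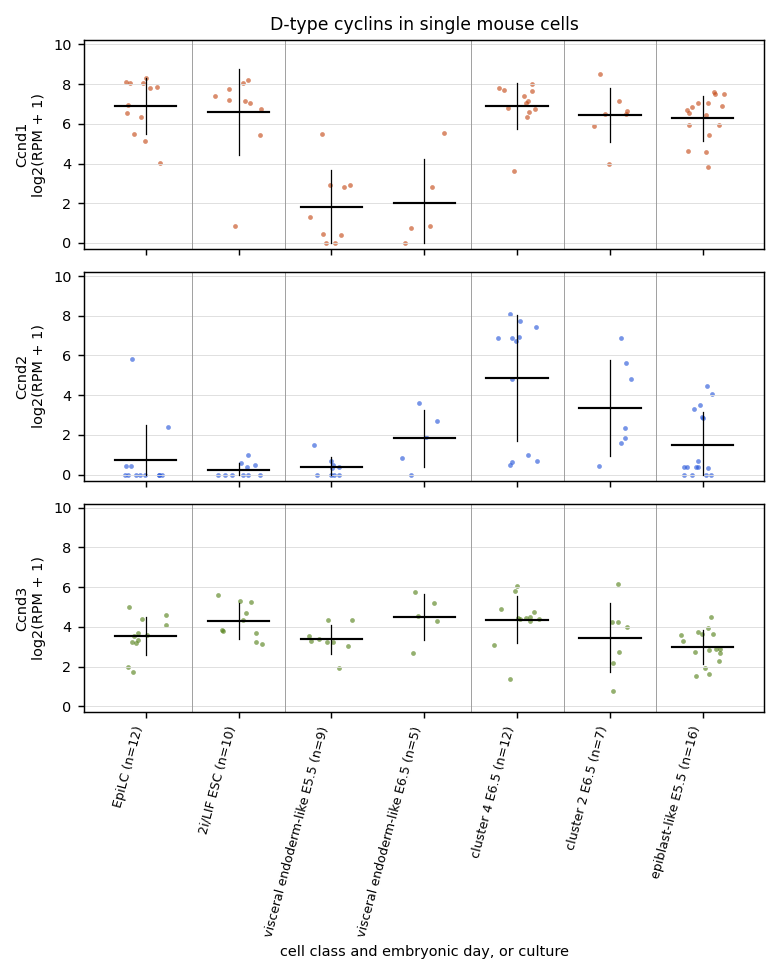
Each point is 1 mouse cell, with log2(RPM + 1) of Ccnd1, Ccnd2 and Ccnd3 on the vertical axes and the culture or cell class and day on the horizontal axis. The thick bar is the mean and the thin line the SD over cells. Ccnd1 is low in visceral endoderm-like cells, and Ccnd2 of cluster 4 falls into a high and a low group.

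Visceral endoderm-like cells, the mouse extraembryonic endoderm, were the lowest of the 7 mouse units in Ccnd1. Their Ccnd3 on E6.5 (4.50 log2(RPM + 1)) was the highest of all units, but the gap to cluster 4 (4.37) was smaller than the SD over cells. On E5.5 their Ccnd3 (3.37) lay above epiblast-like cells (2.98) and below every other unit, so a high Ccnd3 was not shared by both days. On E5.5 the medians over 9 cells were 1.46 RPM of Ccnd1 (0 to 44.1), 0.241 RPM of Ccnd2 (0 to 1.83) and 8.70 RPM of Ccnd3 (2.82 to 19.1). On E6.5, over 5 cells, they were 0.795 RPM of Ccnd1 (0 to 45.7), 2.78 RPM of Ccnd2 (0 to 11.4) and 22.2 RPM of Ccnd3 (5.44 to 53.8). Ccnd3 was the highest of the 3 in 8 of 9 and 4 of 5 cells. The gap between this unit of E6.5 and the next unit above it in the order of Ccnd1, epiblast-like cells of E5.5, was 4.29 (log2) and exceeded the larger SD over cells of 2.24, the sole such gap among the mouse units for the 3 genes.

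Ccnd2 reached its highest mouse levels on E6.5, in cells whose title code MS77 is not shared with E5.5. In cluster 4, which was led by T, Phlda2 and Mesp1 and had 4 of 9 mesoderm markers, Ccnd2 stood at 107 to 270 RPM in 7 cells, 27.5 RPM in 1 and 0.383 to 0.996 RPM in 4, all with title code MS77. Ccnd1 was present in the same 12 cells with a median of 137 RPM (11.4 to 260), also in the 4 with under 1 RPM of Ccnd2, which had 109, 142, 167 and 107 RPM. Cluster 2 of E6.5 had epiblast markers but was led by immunoglobulin genes and stayed unnamed. Its 7 cells held 89.3 RPM of Ccnd1 (14.9 to 365), 4.05 RPM of Ccnd2 (0.342 to 119) and 14.9 RPM of Ccnd3 (0.674 to 70.04). Cdk4 lay between 9.30 and 10.3 log2(RPM + 1) in all 7 mouse units. Cdk6 was at 5.34 in EpiLCs, 5.30 in ESCs, 4.24 in cluster 4, 3.09 in cluster 2 and 2.65 in epiblast-like cells of E5.5. In visceral endoderm-like cells of E5.5 and E6.5 Cdk6 was at 0.79 and 1.27. Levels were not compared between species, since the tables were made on different gene annotations and normalized separately. The order of the genes within each species is given above. CCND2 led in monkey ESCs and in epiblast-like cells of E14, E16 and E17, and was level with CCND1 on E13. Ccnd1 led in mouse epiblast-like cells, EpiLCs and ESCs.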

How the data were processed

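The authors deposited RPM values for each gene in each cell. TopHat 1.4.1, Cufflinks 2.2.0 and cutadapt 1.3 appear in the submitters' processing notes without their roles, and macFas5 is the monkey build per the file headers. Whether counting used strand, and which reads were filtered, was not found in the labels or headers. Among mouse columns, 37 matched no sample and stayed out. RefSeq gave a symbol by gene ID to 3296 of the 14758 monkey LOC rows. Reads were recovered as RPM over the value of 1 read in each cell, and at least 99.6% of values lay within 0.1 of a whole read in every cell.

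Cells were clustered on log2(RPM + 1) of 2000 variable genes with scanpy 1.11.5 (Leiden resolution 1) in Python 3.11.15, without the cyclins and cell cycle lists. A cluster was named when over 50% of a class's markers, at least 3, were up by 1 (log2) with a mean of at least 3. No doublet caller was run on these singly picked cells. The unit value was the mean of log2(RPM + 1) over at least 5 cells, and a gene was tested, two-sided, where 3 or more units reached 2, with limma 3.58.1 (lmFit and eBayes with trend, R 4.3.3) and Benjamini-Hochberg adjustment over all of them at 0.05. Fold changes on this scale understate the change of low genes. edgeR 4.0.16 on recovered reads summed per unit was an alternative. The limma fit of late against early days was tried on simulated unit means, and the ESC comparison and edgeR were not. The members, the 6 lists and the comparisons were chosen with earlier results of these data known. Named genes were the 3 cyclins, up to 4 called genes with the largest difference of each list, all CDK partners and inhibitors, any gene a count of 5 or fewer rests on, and the 5 most correlated genes of each cyclin. Replicates were numbered in accession order and pair no samples. MCM2, MCM4, MCM3, MCM6, RRM2, MKI67 and TOP2A fall outside the rule and were named after their values were seen. A gene of the replication list counts in the totals and is not reported here by name or in the plot of list genes.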

Additional observations from a re-analysis of the deposited data

Results flagged for a closer look

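In 45 groups of 4 to 10 cells or days, 14 highest or lowest values stood apart from the rest of their group by a gap that is large against the group's range. Chance alone gives about 1 in 20 groups, and many of these groups hold zeros in all cells but 1. Values are log2(RPM + 1) except where they are named as unit levels.

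On E09 single cells stood out in all 3 lineages of the monkey embryo. The highest epiblast-like cell had 4.03 for CCND2 (next 0.60), and the highest for CCND1 had 1.26, with the others at 0. In hypoblast-or-endoderm-like cells the highest were 0.66 for CCND1, with the others at 0, and 1.11 for CCND2 (next 0.43), and the lowest for CCND3 was 3.73 (next 5.58). In trophectoderm-like cells 1 cell had 1.53 for CCND1 and the others 0.

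Among late cells, the lowest CCND3 in trophectoderm-like cells of E14 was 1.97 (next 5.54) and the lowest CCND2 in gastrulating-like cells of E16 was 1.35 (next 6.05). In CMK9 ESCs the lowest cell had 5.99 for CCND2 (next 7.84) and the lowest for CCND3 had 0 (next 3.72). In mouse the lowest Ccnd1 among 2i/LIF ESCs was 0.85 (next 5.42) and the highest Ccnd2 in visceral endoderm-like cells of E5.5 was 1.499 (next 0.70).

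Over the 5 days of trophectoderm-like cells the unit level of E14 stood apart for CCND1 at 5.41 (next 0.52) and for CCND2 at 1.25 (next 0.13).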

How the results depend on the processing

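No paired analysis was possible because the labels give the groups no shared replicate numbers. The late-minus-early differences kept their sign under all 18 alternatives. CCND1 came to 2.97 with a pseudocount of 4 RPM and 5.79 with edgeR. CCND2 came to 4.66 with that pseudocount, 5.15 on the log of mean RPM, 5.27 with edgeR and 4.75 within title code MS08. CCND3 came to -1.50 with edgeR and -3.17 within MS08. Leaving out 1 day gave 3.81 to 4.73 for CCND1, 5.87 to 6.35 for CCND2, -2.55 to -1.89 for CCND3, 2550 to 3651 called genes and 18 to 24 called list genes. When units had to hold at least 10 cells, so that E08 was the sole early day, 788 genes and 4 list genes were called.

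For ESCs against late days, 113 genes were called without the filter on low values, 437 after quantile normalization, 503 on the log of mean RPM, 12 with units of at least 10 cells, which leaves CMK6 on feeders as the sole culture, and 356 with edgeR, beside 855. The split of higher and lower calls was 705 to 150, against 235 to 202 after quantile normalization, and for late against early days 1321 to 2394, against 1823 to 1656. List genes numbered 1 without the filter, after quantile normalization, with the pseudocount of 4, with cluster 3 counted as epiblast-like and with edgeR, and 0 with units of at least 10 cells. Leaving out 1 culture or day gave 146 to 656 genes (146 without CMK6 on feeders, 148 without CMK9, 288 without E14), 1 to 2 list genes, and differences of -0.21 to 0.72 for CCND1, 1.05 to 1.52 for CCND2 and -0.49 to 0.17 for CCND3. Within MS11 CCND2 came to 2.00 and CCND3 to 0.67. CDKN1B, at -0.14, turned to 0.078 and CDKN1C to -0.38 with that 1 culture, and CDKN1B ranged from -0.27 to 0.095 when 1 culture or day was left out, turning without feeder-free CMK6. The causes were not tested. The alternatives on clusters 3 and 6 and on title codes were chosen after seeing the data. Of the shares of cells with at least 10 RPM, 29 of 93 left their interval at 1 RPM, 44 at 50 RPM and 4 after thinning. Days and cultures are few, embryos are not named, and zeros of CCND1 and CCND2 are limited by read depth.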
